A study of Mus musculus with 16 samples.

Results

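The metabotropic glutamate receptors measured here are those of the genes Grm2, Grm3, Grm4, Grm5, Grm7 and Grm8, in whole lumbar spinal cord of young mice carrying the ALS transgene SOD1G93A and of their non-transgenic wild-type controls. Their probes were chosen by gene name: every probe that is not a control and that the array files assign to 1 of these 6 genes was taken, which gave 11 of 41174 probes, or 6 of 27962 gene names. Grm5 had 4 probes, Grm7 had 3, and Grm2, Grm3, Grm4 and Grm8 had 1 each. Cord was taken from male mice of a B6SJL background at 40 and 80 days, before symptoms, with 16 arrays, 4 per genotype and age. SOD1G93A mice carry many copies of a mutant human SOD1 gene, so a difference between the genotypes is a difference from mice with no human SOD1 at all. Each array held the Cy3-labeled RNA of a cord sample beside a Cy5-labeled reference pooled from heart, liver and kidney of newborn mice of both genotypes. The labels call the samples biological replicates, and the methods name more mice per group than there are arrays, state that arrays of poor quality were left out, and do not say which mouse is on which array. The study compared the genotypes at each age to find what differs in the cord before disease onset, with the glutamatergic synapse among the pathways it followed.

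Metabotropic glutamate receptors sense glutamate through a large extracellular domain and act through G proteins rather than through an ion pore. Group I, to which Grm5 belongs, signals through Gq to phospholipase C and releases calcium inside the cell. Group II (Grm2 and Grm3) and group III (Grm4, Grm6, Grm7 and Grm8) signal through Gi and Go, lower adenylyl cyclase activity, and often restrain transmitter release from the nerve ending. In the spinal cord, Grm5 is found on dorsal horn neurons and on astrocytes, and Grm3 on neurons and glia.

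The probes on which the results turn are shown here with their 60 bases, written 5′ to 3′, and their places on the mm7 (NCBI35) mouse build as given by the array files. No annotation of that build was used, so exons and introns were not assigned, but the wide placement of both Grm7 probes below shows that each crosses at least 1 intron. The first pair is from Grm5 and lies 83 bases apart on the plus strand of chromosome 7, A_52_P675611 at chr7:83538870-83538929 and A_52_P181394 at chr7:83539013-83539072. It is shown because both gave a higher ratio at 80 than at 40 days in wild-type cord.
A_52_P675611: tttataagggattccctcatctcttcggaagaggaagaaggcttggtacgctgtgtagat
A_52_P181394: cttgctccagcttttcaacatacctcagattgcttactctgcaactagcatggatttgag
The next pair is from Grm7 on the plus strand of chromosome 6, A_52_P551129 placed at chr6:111655681-111725858 and A_52_P607936 at chr6:111226722-111240196. Its probes were measured on most arrays and passed the test in none of the comparisons with the processing used here, although A_52_P607936 did with age in wild-type cord in 2 of 7 other settings. That probe entered the age comparisons through its 80-day arrays alone, as given below, so these 2 calls are no support for a rise.
A_52_P551129: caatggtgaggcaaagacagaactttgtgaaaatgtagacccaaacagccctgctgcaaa
A_52_P607936: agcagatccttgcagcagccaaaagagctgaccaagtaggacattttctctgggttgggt
The last is from Grm4, A_52_P565567 at chr17:25620753-25620812 on the minus strand, a receptor that was not detected in either channel.
A_52_P565567: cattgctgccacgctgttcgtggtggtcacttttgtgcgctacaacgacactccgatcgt
The other Grm5 probes, A_51_P465591 at chr7:84069277-84069336 and A_51_P333441 at chr7:84070171-84070230, lie 530204 bases further along the chromosome than A_52_P181394, and 834 bases apart. Grm3 was read by A_51_P486543 at chr5:9523846-9523905 and Grm8 by A_52_P25774 at chr6:27207766-27207825, both on the minus strand.

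Of the 6 receptors, Grm3, Grm5, Grm7 and Grm8 were detected in the cord, and Grm2 and Grm4 were not. Detected here means that Feature Extraction, the scanner software, marked the Cy3 signal as well above background, and a probe was tested if at least 3 of 4 arrays in any group met this mark. By this measure 8 of the 11 probes were tested, 7 of them at 40 days. The Grm7 probe A_52_P607936 met the mark on 2 of 4 arrays in each group of 40 days. At 80 days it did so on 4 of 4 wild-type and 3 of 4 SOD1G93A arrays. It entered the age comparisons by its 80-day arrays alone, which favors a rise with age. Between 46.1% and 55.3% of all probes were well above background in Cy3 on an array. Grm2, an autoreceptor of glutamatergic endings, had 1 probe (A_51_P414219, designed on a cDNA), with Cy3 signals of 38 to 45 scanner units over local backgrounds of 33.5 to 38.5, and was well above background on 0 of 16 arrays. The probe of Grm4, another presynaptic receptor, gave 43 to 50 units and also 0 of 16. Both were not well above background in the Cy5 reference either, so nothing can be said of their change. The Grm7 probe A_52_P551544 (40 to 47 units) passed on 1 array, a SOD1G93A sample of 80 days, and was not tested.

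The Grm5 probe A_51_P465591 gave the strongest signal of the 11, with 266 to 718 units and a median of 546. Signals of different probes depend on the probe as well as on the transcript and rank no receptor. The Grm3 probe gave 117 to 167 units, the Grm8 probe 72 to 108, the Grm7 probe A_52_P551129 61 to 83 and the Grm5 probes A_52_P181394 and A_52_P675611 67 to 93.5 and 55 to 75.5, all well above background on 16 of 16 arrays. The local backgrounds of these 5 probes were 34 to 43 units. The probe A_51_P333441 (50 to 57 units, 14 of 16 arrays) and the Grm7 probe A_52_P607936 (45 to 63 units, 11 of 16) lay closest to theirs, at 33 to 39 and 34 to 39 units. In the reference, the Grm5 probe A_51_P465591 was well above background on 9 arrays and each of the others on at most 3. Where Cy5 lies near background, a ratio to the reference is set mainly by the Cy3 signal. This did not hold on every array. Grm8 in wild-type replicate 2 of 40 days had Cy3 100.5 and Cy5 190.5, and the lowest ratio of its group (1.13). Grm5 A_52_P675611 in wild-type replicate 1 of 80 days had Cy3 75.5 and Cy5 159, and also the lowest (0.80). The offset of 50 added to both channels makes the change of a dim probe look smaller than it is.

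**Figure D1:**
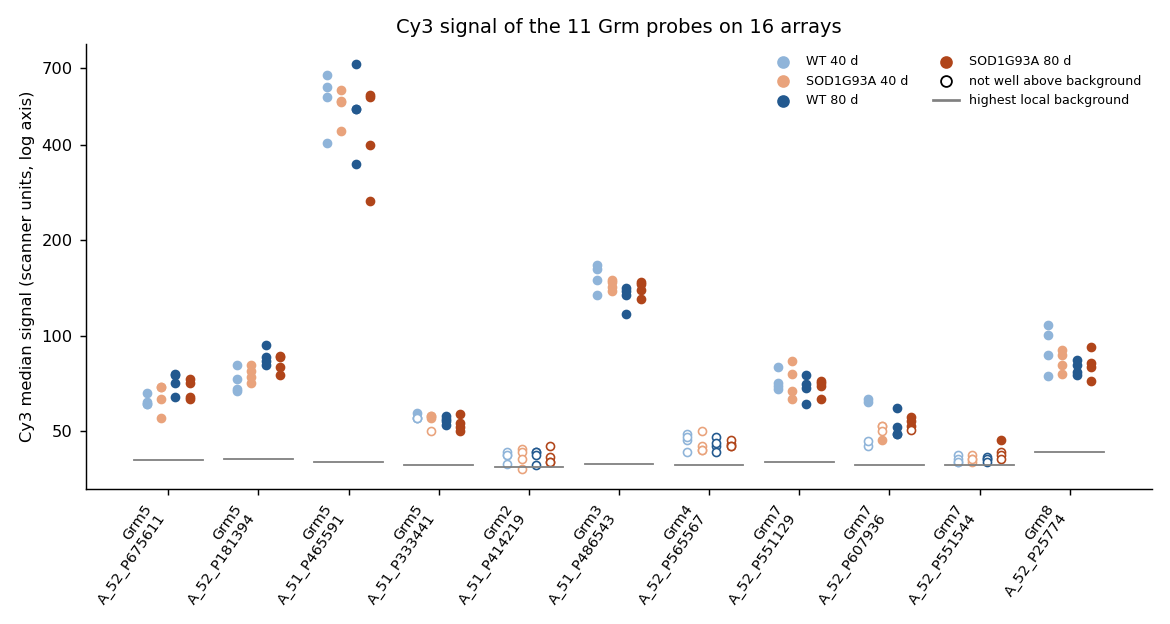
Cy3 median signal in scanner units on a log axis, for the 11 Grm probes on 16 arrays. Each point is 1 array, colored by group, open where the signal was not well above background, and the grey line is the highest local background of that probe. The Grm2 and Grm4 points are all open at 38 to 50 units, and the Grm5 probe A_51_P465591 reaches 718.

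Levels are given as the log2 ratio of cord to reference, which is open to dye bias because the dyes were never exchanged. The mean ratio of Grm5 A_51_P465591 was 4.95 ± 0.37 (SD, n = 4) in wild-type and 5.01 ± 0.21 in SOD1G93A cord at 40 days, and 4.93 ± 0.59 and 4.51 ± 0.62 at 80 days. Grm3 had 2.61 ± 0.20, 2.58 ± 0.078, 2.42 ± 0.15 and 2.47 ± 0.19 in the same order of groups. Grm8, found mainly on nerve endings, had 1.38 ± 0.26, 1.36 ± 0.15, 1.24 ± 0.11 and 1.28 ± 0.18. Grm7, the receptor of the active zone that needs high glutamate to respond, had 0.91 ± 0.058 (n = 3, 1 wild-type spot being an outlier), 0.96 ± 0.13, 0.93 ± 0.11 and 0.84 ± 0.091 by A_52_P551129. For each of these 4 probes the ranges of all groups overlapped.

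The clearest difference among the receptors was one of age in wild-type cord, at the neighboring pair of Grm5 probes. With A_52_P181394 the log2 ratios were 0.93, 0.98, 0.90 and 0.86 in the wild-type samples of 40 days and 1.58, 1.39, 1.31 and 1.34 in those of 80 days. Every sample of 80 days lay above every sample of 40 days. The mean was higher by 0.49 ± 0.090 (SE), a 1.40-fold ratio, with an adjusted p = 0.0102 over 21953 probes by limma and Benjamini-Hochberg and an exact permutation p = 0.0286, the smallest that 4 arrays against 4 can give.
In SOD1G93A cord the same probe gave 1.23, 1.02, 1.02 and 1.11 at 40 days and 1.39, 1.39, 1.03 and 1.03 at 80 days. These groups overlapped, and the difference of 0.12 ± 0.090 did not pass (adjusted p = 0.546 by limma, 95% interval from -0.075 to 0.31). The 95% interval in wild-type cord ran from 0.30 to 0.68.

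The neighbor A_52_P675611 gave 0.64, 0.68, 0.75 and 0.60 in wild-type cord of 40 days and 0.80, 1.10, 0.88 and 0.95 at 80 days. The groups again did not overlap, and the difference was 0.26 ± 0.079 (unadjusted p = 0.0040, adjusted p = 0.116 by limma). In SOD1G93A cord it gave 0.79, 0.89, 0.57 and 0.77 at 40 days and 0.99, 0.91, 0.80 and 0.74 at 80 days, which overlapped, with a difference of 0.10 ± 0.079 (adjusted p = 0.538 by limma). With the distant Grm5 probes the difference in wild-type cord did not pass. It was 0.017 ± 0.064 with A_51_P333441, the dimmest of the 4, with a 95% interval of -0.12 to 0.15, and -0.023 ± 0.29 with A_51_P465591, whose interval of -0.65 to 0.60 leaves room for the change seen with the neighboring pair.

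In wild-type cord 2 of 8 tested receptor probes were called higher with age and 0 lower, where called means an unadjusted p under 0.05, the limit the study used. Over all tested probes 6.78% were called higher and 8.29% lower. In SOD1G93A cord 0 of 8 receptor probes were called, against 8.64% of all probes called higher and 8.28% lower. Grm3 differed at 80 days by -0.19 ± 0.11 in wild-type (unadjusted p = 0.0921 by limma, exact permutation p = 0.171) and by -0.11 ± 0.11 in SOD1G93A cord, neither passing. Without wild-type replicate 2 of 40 days the first was -0.29 and passed (unadjusted p = 0.00938 by limma). Grm8 differed by -0.14 ± 0.12 and -0.085 ± 0.12 with age, and Grm7 A_52_P551129 by 0.019 ± 0.080 and -0.13 ± 0.074, the last at -0.19 and passing without SOD1G93A replicate 3 of 40 days (unadjusted p = 0.0211 by limma).

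The age difference of A_52_P181394 in wild-type cord was present on each of the 4 slides, every one of which held 1 array of each group. The 80-day sample exceeded the 40-day sample of its slide by 0.65, 0.41, 0.41 and 0.48, and for A_52_P675611 by 0.17, 0.42, 0.12 and 0.35. With the Cy3 channel alone, and no use of the reference, the differences were 0.29 (adjusted p = 0.0473) and 0.22 (adjusted p = 0.0709 by limma). With the processed signals of the scanner software, A_52_P181394 still differed by 0.56 but with an unadjusted p = 0.198 by limma, and A_52_P675611 turned to -0.14. With arrays centred by their median in place of loess A_52_P675611 also turned, to -0.047. Each group always had the same position on a slide, so neither age, nor genotype, nor their interaction can be told apart from position.

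Markers of other cells were compared with age too. In wild-type cord 4 of 8 oligodendrocyte markers were called lower at 80 days and 0 higher. Called or not, 7 of these 8 lay below 0, with a list median of -0.32. Over all tested probes 6.78% were called higher and 8.29% lower with age in wild-type cord. Called higher were 1 of 9 microglia, 2 of 10 astrocyte and 1 of 10 neuron markers, with 0 called lower, small counts given as a description. Their list medians were 0.26, 0.074 and 0.041, with 8 of 9, 7 of 10 and 7 of 10 markers above 0. The median over 15126 genes was 0.017. The list of 4 Schwann cell markers had a median change of -0.64 with 0 called. For each array a list was given a level, the median over its genes of how far each gene lay from its own mean over the arrays. That of the microglia markers ranged from -0.21 to -0.071 at 40 days with a median of -0.13, and from -0.15 to 0.68 at 80 days with a median of -0.083. That of the 10 astrocyte markers ranged from -0.13 to 0.0011 at 40 days and from -0.12 to 0.10 at 80 days, and that of the 10 neuron markers from -0.17 to 0.024 and from -0.0083 to 0.16. In SOD1G93A cord 5 of 8 oligodendrocyte markers were called lower with age and 0 higher, with a list median of -0.45. The microglia list had a median of 0.35 there, with 9 of 9 markers above 0 and 1 called higher. The astrocyte and neuron lists had medians of -0.098 and -0.083, with 7 of 10 and 9 of 10 below 0. Over all tested probes 8.64% were called higher and 8.28% lower. The part of cell composition in the Grm5 values was not tested, and in whole cord fewer cells of a type cannot be told apart from less RNA per cell. All 10 astrocyte and all 10 neuron markers were well above background on 16 arrays. So were 4 of 6 motor neuron markers, among them Slc18a3 and Slc5a7, while Chat of the same list was on 0 of 16.

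**Figure D2:**
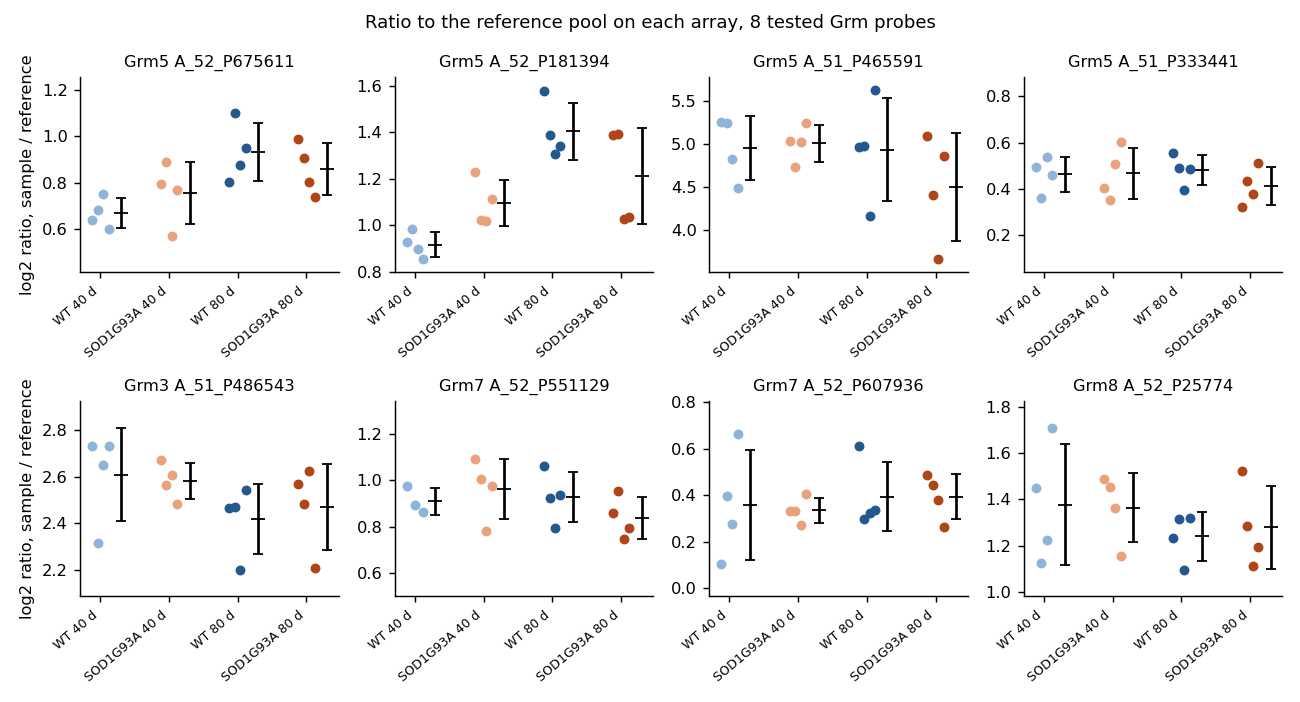
Log2 ratio of cord to reference on each array, for the 8 tested Grm probes in the 4 groups, with a bar for the mean ± SD beside the points. For Grm5 A_52_P181394 the wild-type points lie at 0.86 to 0.98 at 40 days and at 1.31 to 1.58 at 80 days, with the SOD1G93A points between or among them. Panels have their own scale.

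The genotypes were compared within each age, where they too differed in their position on the slide. At 40 days, Grm5 was higher in SOD1G93A than in wild-type cord by the probe A_52_P181394, with 1.02 to 1.23 against 0.86 to 0.98, so that the groups did not overlap. The difference was 0.18 ± 0.063, or 1.13-fold (unadjusted p = 0.0166, adjusted p = 0.998 by limma, exact permutation p = 0.0286), and within the slides it was 0.30, 0.039, 0.12 and 0.26. It was the only one of 7 tested receptor probes called, with 0 called lower, against 2.44% of all probes called higher and 2.03% lower. Its neighbor A_52_P675611 differed by 0.088 ± 0.073 (unadjusted p = 0.257 by limma, exact permutation p = 0.286) with overlapping groups, and the distant Grm5 probes by 0.0026 ± 0.068 and 0.052 ± 0.17. The call of A_52_P181394 was lost with the Cy3 channel alone (0.11, unadjusted p = 0.0893), with the series matrix of the authors (0.075, unadjusted p = 0.129) and with all 16 arrays in the fit (0.18, unadjusted p = 0.0618).
In the same samples 3 of 10 astrocyte markers were called higher in SOD1G93A cord and 0 lower, among them Gfap by 0.24 ± 0.083, and 3 of 8 oligodendrocyte markers. The list medians were 0.058 and 0.16, with 8 of 10 and 8 of 8 markers higher. The neuron markers had a larger median than the astrocyte markers, 0.089 with 8 of 10 higher and 0 called. The motor neuron markers had a median of -0.10 with 0 called. The astrocyte level was -0.13 to 0.0011 in wild-type and -0.026 to 0.16 in SOD1G93A cord. Larger median differences, with 0 called, were those of the Schwann cell markers, -0.96 with 4 of 4 lower, and of the skeletal muscle markers, 0.81 with 5 of 5 higher. The Schwann cell level ran from -1.28 to 1.74 in wild-type and from -1.18 to 0.51 in SOD1G93A cord, and the muscle level from -0.78 to 0.30 and from -0.68 to 2.49. The part of these cells in the Grm5 difference was not tested.

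At 80 days 0 of 8 receptor probes were called, against 3.74% of all probes called higher and 3.12% lower. Grm5 A_52_P181394 differed by -0.19 ± 0.11, SOD1G93A minus wild-type, (unadjusted p = 0.0966 by limma, exact permutation p = 0.257) with overlapping groups, and within slides the difference was -0.19, 0.0052, -0.28 and -0.31. The brightest Grm5 probe, A_51_P465591, gave 4.96, 4.98, 4.17 and 5.62 in wild-type and 5.09, 4.41, 3.67 and 4.86 in SOD1G93A cord. The means differed by -0.42 ± 0.33 (unadjusted p = 0.233 by limma, exact permutation p = 0.429), and the differences within slides were 0.13, -0.57, -0.50 and -0.76. With the slide as a block, which is also the replicate number, both passed without adjustment: A_51_P465591 at -0.42 with an unadjusted p = 0.0157 (adjusted p = 0.608) and A_52_P181394 at -0.19 with an unadjusted p = 0.0325, both by limma.
Grm3 differed by 0.051 ± 0.10, Grm8 by 0.038 ± 0.094, and Grm7 by -0.090 ± 0.074 and 0.00056 ± 0.084 with its probes. Their 95% intervals, -0.18 to 0.28 for Grm3, -0.17 to 0.25 for Grm8 and -0.26 to 0.074 for Grm7 A_52_P551129, hold for the ratio as shrunken by the offset. With the processed signals the differences lay outside these intervals, at -0.54, -0.63 and -0.40, with 0 called. Those of Grm3 and Grm8 changed sign. Processed signals carry no such offset, but they also did not pass through the normexp and loess steps. In Cy5 the 3 probes were well above background on only 1, 2 and 3 of 16 arrays. The part of the offset in these departures was not tested. At 40 days the differences were -0.026 ± 0.095 for Grm3, -0.013 ± 0.12 for Grm8 and 0.053 ± 0.080 for Grm7 A_52_P551129, with intervals of -0.24 to 0.19, -0.29 to 0.27 and -0.13 to 0.23.

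Without adjustment only, the genotype difference of Grm5 A_52_P181394 was called different at the 2 ages. From 40 to 80 days it moved by -0.37 ± 0.13, from 0.18 to -0.19 (unadjusted p = 0.00954, adjusted p = 0.602 by limma, exact permutation p = 0.0118 over 4900 ways of moving the genotype labels within each age). That permutation takes no genotype difference at either age as its null, not an equal difference at both. The value of -0.37 also says that the age difference was larger in wild-type than in SOD1G93A cord. It shares the 4 wild-type arrays of 40 days with the age difference in wild-type cord and with the genotype difference at 40 days, so the 3 are not independent. The interaction was called with each of the 16 arrays left out in turn (-0.43 to -0.31), with the Cy3 channel alone (-0.25, unadjusted p = 0.0109 by limma) and in the series matrix (-0.22, unadjusted p = 0.0049), and not with median centring (-0.26, unadjusted p = 0.0958), backgrounds as deposited (-0.40, unadjusted p = 0.187) or processed signals (-0.33, unadjusted p = 0.575). This was 1 of 8 receptor probes called lower and 0 higher, against 3.57% and 3.11% of all probes. The neighbor A_52_P675611 moved the same way by -0.16 ± 0.11 (unadjusted p = 0.168 by limma, exact permutation p = 0.160), A_51_P333441 by -0.072 ± 0.091 and A_51_P465591 by -0.48 ± 0.42. Gfap moved by -0.41 ± 0.17 and 3 of 10 astrocyte markers were called lower in this comparison, with a list median of -0.074. The neuron and oligodendrocyte lists moved further, each with a median of -0.14 and 1 marker called lower. In these lists 8 of 10 and 6 of 8 markers lay below 0. With 0 called, the medians were 0.17 for microglia, 0.82 for Schwann cell and -0.31 for skeletal muscle markers. The part of these cells in the Grm5 values was not tested. Grm3, Grm7 and Grm8 moved by 0.077 ± 0.15, -0.14 ± 0.11 (A_52_P551129) and 0.051 ± 0.17, with 0 called.

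**Figure D3:**
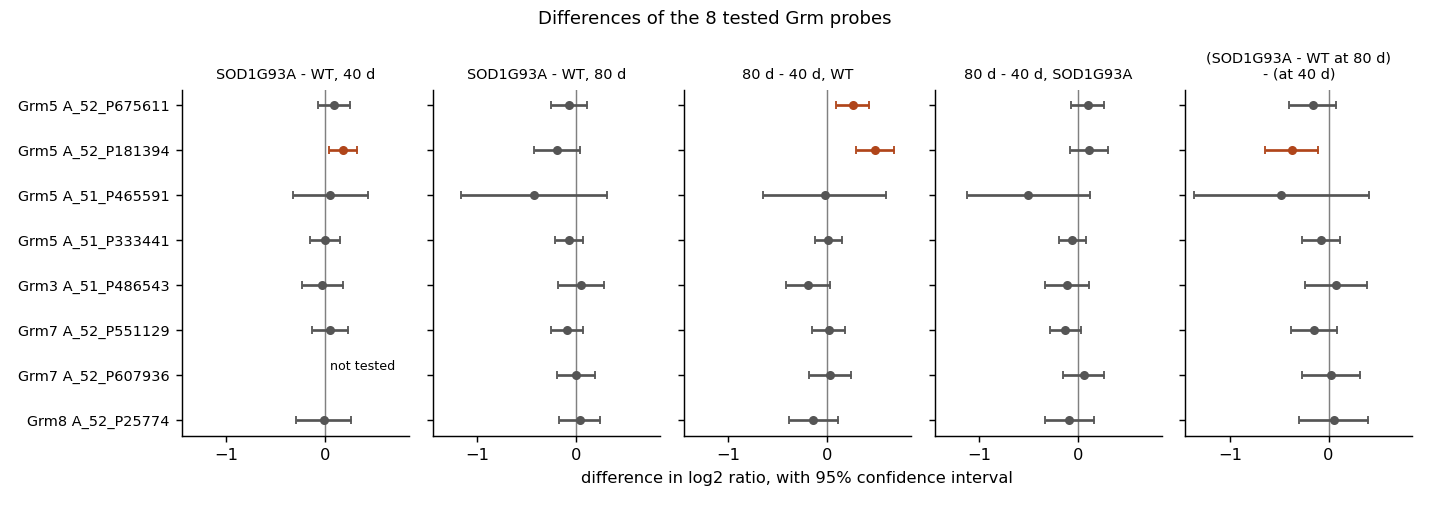
Difference in log2 ratio with its 95% confidence interval by limma, for the 8 tested Grm probes in the 5 comparisons. Red marks an unadjusted p under 0.05. The 4 red points are all from the neighboring Grm5 probes A_52_P675611 and A_52_P181394, in comparisons that share the wild-type arrays of 40 days. Every interval of Grm3, Grm7 and Grm8 spans 0.

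The Grm5 probes differed in how far replicates spread. Within groups A_51_P465591 had an SD of 0.481, larger than that of 99.2% of the tested probes, whose median was 0.111. For the other receptor probes it was 0.0847 to 0.182. Its ratio was lowest in a SOD1G93A sample of 80 days (3.67) and highest in a wild-type sample of 80 days (5.62). Over 16 arrays A_52_P181394 and A_52_P675611 varied together, with Pearson r = 0.71 and Spearman rho = 0.79 (permutation p adjusted over the 6 pairs of Grm5 probes 0.0129 and 0.00246). Without the 2 arrays farthest from the median of A_52_P181394, r was 0.84. Taken as deviations from the group means, r was 0.31. Their r with A_51_P465591 was 0.10 and -0.0050 and with A_51_P333441 -0.025 and -0.26, with adjusted permutation p of 0.654 to 0.986.

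Among the different receptors, Grm3 and Grm8 varied together. Over 16 arrays r was 0.67 and rho 0.62 (permutation p adjusted over 6 pairs of genes 0.0284 and 0.0730). It was 0.62 for r without the 2 arrays farthest from the median of Grm3, and 0.61 for deviations from the group means. A slide holds too few arrays for a value of its own. The other 5 pairs of Grm3, Grm5 (A_51_P465591), Grm7 and Grm8 had r of 0.063 to 0.50, with adjusted permutation p of 0.173 to 0.818. The points share the reference and the normalization of each array.
The genes whose ratios were most like those of each receptor, of 19762 probes compared and as a description only, were Vipas39, Cds1 and Cables2 for Grm3 (r of 0.86, 0.85 and 0.83), Snrpd3, Pafah1b1 and Taok1 for Grm5 A_51_P465591 (0.91, 0.88 and 0.87), Rab9b, Maz and Stmn1 for Grm7 A_52_P551129 over 15 arrays (0.87, 0.84 and 0.84), and Ap3s2, Kcnab3 and Tmem186 for Grm8 (0.81 each).

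Of the genes that carry the signal of these receptors, most did not pass the test. With 1 probe per gene, 75 genes of G proteins, effectors, scaffolds, desensitization and glutamate handling were tested. At 40 days 3 were called higher in SOD1G93A cord and 0 lower, against 2.44% and 2.03% of all probes, and at 80 days 4 were higher and 2 lower, against 3.74% and 3.12%. These counts lie near the shares over all probes, so the genes are named as a description. Those of 40 days were Gnai1, a Gi subunit used by group II and III receptors (0.21 ± 0.082), the astrocyte glutamate transporter Slc1a3 (0.19 ± 0.081) and Cacna1b, a calcium channel of nerve endings that such receptors inhibit (0.17 ± 0.071). At 80 days the adenylyl cyclase Adcy5 was higher by 0.46 ± 0.18, the G protein subunits Gng7 and Gnb5 by 0.21 ± 0.068 and 0.18 ± 0.062, and the postsynaptic scaffold Dlg4 by 0.20 ± 0.090. The lower ones were Rimklb, a synthase of the Grm3 agonist NAAG, at -0.29 ± 0.080, and the glutamine carrier Slc38a1 at -0.21 ± 0.078. The adjusted p by limma was 0.654 or more for each of these.
The list of glutamate and NAAG supply and clearance had a median difference of -0.12 over 15 tested genes at 80 days, with 4 above and 11 below 0, where the median over 14967 genes was -0.0037. The list of Gq transduction and scaffold genes, the partners of Grm5, had 1 of 17 called at 80 days and 0 at 40 days, with medians of -0.0038 and 0.045. Group II and III partners had 3 of 28 called at 80 days and 2 at 40 days, with medians of 0.024 and 0.039.

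With age 9 of the 75 genes were called higher and 3 lower in wild-type cord, and 7 higher and 3 lower in SOD1G93A cord. Over all probes 6.78% were called higher and 8.29% lower in wild-type, and 8.64% and 8.28% in SOD1G93A cord, so that the counts in SOD1G93A cord were near or below these shares. Arrb1, an arrestin that uncouples such receptors from G proteins, was higher in both (0.22 ± 0.080 and 0.27 ± 0.080), as was the potassium channel subunit Kcnj9 (0.20 ± 0.082 and 0.22 ± 0.082). Rgs4, which shortens the signal of Gq and Gi proteins, was lower in both, at -0.30 ± 0.093 in each. These had adjusted p of 0.110 to 0.247 by limma. Among the genes called in wild-type cord were also Glul, which turns glutamate into glutamine (0.33 ± 0.12), and Pick1, a scaffold that binds Grm7 (0.21 ± 0.079), and in SOD1G93A cord Itpr1, the calcium channel opened downstream of Grm5 (0.27 ± 0.090). The change of Slc1a3 between the genotypes moved by -0.40 ± 0.14 from 40 to 80 days, the largest of the 5 genes called in that comparison. Of the 75 genes 1 was called higher and 4 lower, against 3.11% and 3.57% of all probes. These counts lie near the shares over all probes, so Slc1a3 is named as a description.

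**Figure D4:**
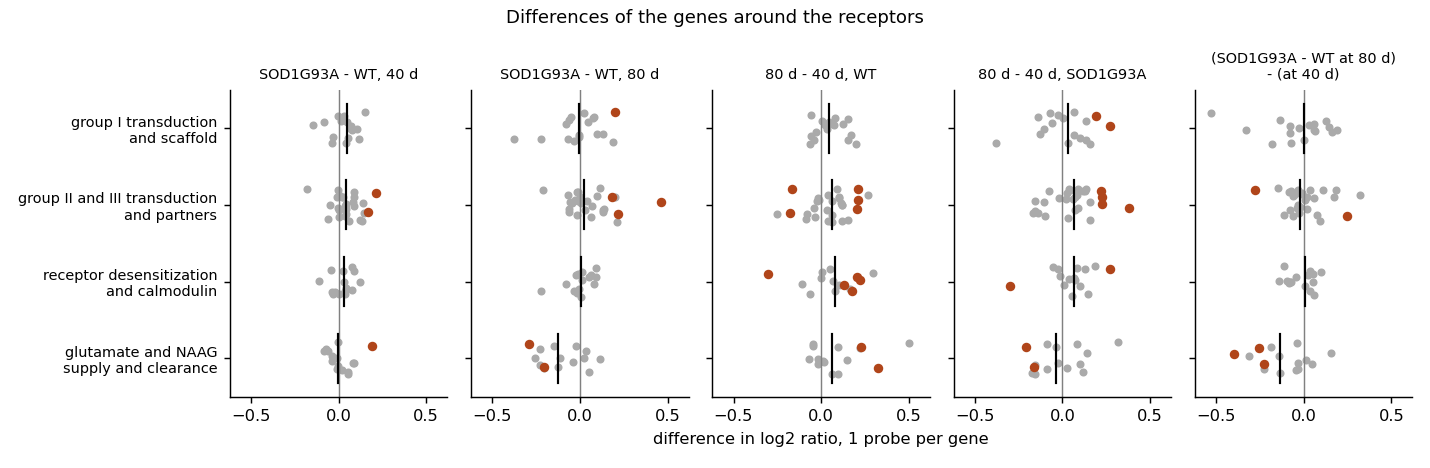
Difference in log2 ratio of 75 genes in 4 lists around the receptors, 1 point per gene, in the 5 comparisons. Red points have an unadjusted p under 0.05 and the black bar is the median of a list. The medians lie between -0.13, for glutamate and NAAG supply and clearance in the difference between the ages, and 0.080.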

How the data were processed

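The authors deposited linear spot intensity from Agilent Feature Extraction 9.5.3.1, not normalized. The deposited series matrix holds log2 values that follow Cy3 and have equal quantiles within each age, so it served for genotype comparisons only. In limma 3.58.1 (R 4.3.3), median signals of 16 arrays were corrected by normexp with an offset of 50 and loess, leaving out control and outlier spots. A local background more than 20 units above its spot was replaced by the array median. The log2 ratio is Cy3 over Cy5. A probe needed at least 3 of 4 arrays of 1 group well above background and 2 measured per group. Genotypes were fitted on 8 arrays, ages and the interaction on 16, with lmFit and eBayes, called at p under 0.05, with Benjamini-Hochberg beside it. Exact permutation tests were two-sided (Python 3.11.15, scipy 1.17.1, numpy 2.4.6, pandas 2.3.3, matplotlib 3.10.9). The fits were tested on simulated data with 200 changed probes. All 11 Grm probes are named, and of the lists the genes called, at most 10 per comparison. The 4 pathway lists and 10 marker lists, and the members themselves, were chosen with earlier results of these data known. Probes were named from the files, updated through RefSeq for 32719 of 41174. Alternatives changed the background, signal, centring, filter, fit, replicate block and each array left out. The result of 1 related gene is not reported here.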

Additional observations from a re-analysis of the deposited data

Results flagged for a closer look

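The genotype difference of Grm5 A_52_P181394 was of opposite sign at the 2 ages, and the interaction term gave -0.37 for the difference at 80 days minus that at 40 days (unadjusted p = 0.00954, adjusted p = 0.602 by limma). The exact permutation p = 0.0118 has no genotype difference at either age as its null. One wild-type sample of 80 days stood apart with the Grm7 probe A_52_P607936, replicate 1, at a log2 ratio of 0.61 where the other samples of its group had 0.30, 0.32 and 0.34. It was the 1 sample that stood apart in 31 groups of 4 tested by Dixon's test, which chance alone does in about 1 of 20 groups.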

How the results depend on the processing

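The rise of Grm5 A_52_P181394 with age in wild-type cord kept its direction and its call in 7 of 8 other settings (0.29 to 0.64, with 0.56 and no call for processed signals) and with each array left out (0.43 to 0.52). That of A_52_P675611 was called in 6 of 8 and with each array left out (0.21 to 0.31), and turned with processed signals (-0.14) and median centring (-0.047). The genotype difference of A_52_P181394 at 40 days kept its direction and was called in 4 of 10 settings. It lost its call with backgrounds as deposited (0.13), processed signals (0.28), Cy3 alone (0.11), the series matrix (0.075), median centring (0.14) and 16 arrays in 1 fit (0.18), and without SOD1G93A replicate 1 of 40 days (0.14, unadjusted p = 0.0514 by limma), with 0.14 to 0.21 over the arrays left out. Its interaction lost the call with backgrounds as deposited (-0.40), processed signals (-0.33) and median centring (-0.26). The cause was not tested. At 80 days A_52_P181394 was also called in the series matrix (-0.15, unadjusted p = 0.0266 by limma), with 16 arrays in 1 fit (unadjusted p = 0.0472 by limma) and without replicate 1 or 2 of SOD1G93A (-0.25 each). Grm7 A_52_P607936, let into the age comparisons by its 80-day arrays alone, was called with age in wild-type cord with processed signals (1.21) and median centring (0.21). Other calls gained, all at an unadjusted p under 0.05 by limma, were the interaction of A_52_P675611 with Cy3 alone (-0.19) and in the series matrix (-0.14). With an array left out they were A_52_P675611 at 40 days without SOD1G93A replicate 3 (0.15), Grm3 with age in wild-type cord without replicate 2 of 40 days (-0.29), and with age in SOD1G93A cord A_51_P465591 without replicate 1 of 80 days (-0.69) and Grm7 A_52_P551129 without replicate 3 of 40 days (-0.19).

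With the replicate block, which is the slide, A_51_P465591 (-0.42, unadjusted p = 0.0157 by limma) and A_52_P181394 (-0.19, unadjusted p = 0.0325 by limma) passed at 80 days, and no other call of a receptor probe changed. Same-numbered samples did not deviate together in every pair of groups. Their r ran from 0.090 to 0.23 between SOD1G93A samples of 40 and 80 days and from -0.066 to 0.20 in the other pairs of groups, and 7 of 16 samples correlated best with their own number.

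The count of all probes called at 40 days, 953, became 246 with backgrounds as deposited, 1615 with processed signals, 554 with Cy3 alone, 538 in the series matrix and 1881 with no filter on dim probes, and 715 to 1894 with an array left out, the highest without wild-type replicate 4. At 80 days 1481 became 2412 without the filter, and 974 to 1846 with an array left out, the lowest without SOD1G93A replicate 3. For the interaction 1466 became 797 with backgrounds as deposited and 2459 without the filter, and for age in wild-type cord 3307 became 5004 without it. The share of called probes that were higher, at 40 days, 80 days, the interaction, and with age in wild-type and in SOD1G93A cord, was 54.6%, 54.5%, 46.6%, 45.0% and 51.1%. It became 8.98%, 82.8%, 91.1%, 8.26% and 69.6% with median centring and 86.4%, 35.6%, 19.3%, 60.0% and 34.8% with processed signals. With Cy3 alone it was 70.2% at 40 days and 30.6% for the interaction, in the series matrix 67.1% at 40 days, and with backgrounds as deposited 40.2% and 42.4% at 40 and 80 days.

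Small differences of receptor probes that were not called changed sign as follows. With processed signals these were, at 40 days, Grm3 (0.083), Grm7 A_52_P551129 (-0.11) and Grm8 (1.49). At 80 days they were Grm3 (-0.54), Grm5 A_52_P675611 (0.53), Grm7 A_52_P607936 (-0.22) and Grm8 (-0.63). For the interaction they were Grm3 (-0.62), A_52_P675611 (0.0036), A_52_P607936 (-1.08) and Grm8 (-2.12). With age they were in wild-type cord Grm3 (0.79), Grm5 A_51_P465591 (0.030) and Grm8 (1.45), and in SOD1G93A cord Grm3 (0.17) and A_52_P675611 (-0.14). Of these the interaction of Grm8 and the age differences of Grm3 and Grm8 in wild-type cord passed without adjustment.
With median centring they were, at 40 days, Grm3 (0.028), A_52_P551129 (-0.019) and Grm8 (0.39, unadjusted p = 0.0409 by limma). At 80 days they were Grm3 (-0.082), A_52_P675611 (0.18), A_52_P607936 (-0.020) and Grm8 (-0.013). For the interaction they were Grm3 (-0.11), A_52_P675611 (0.095), A_52_P607936 (-0.31, unadjusted p = 0.0346 by limma) and Grm8 (-0.40), and with age Grm8 in wild-type (0.23) and A_51_P333441 (0.0085) and A_52_P607936 (-0.10) in SOD1G93A cord.
With backgrounds as deposited they were, at 40 days, A_51_P333441 (-0.018) and A_51_P465591 (-0.077). At 80 days they were Grm3 (-0.073), A_52_P607936 (-0.028) and Grm8 (-0.050), and for the interaction Grm3 (-0.00076) and Grm8 (-0.027). With age they were Grm3 (0.16), A_51_P465591 (0.34) and Grm8 (0.070) in wild-type and Grm3 (0.16), A_51_P333441 (0.013) and Grm8 (0.043) in SOD1G93A cord.
With no background subtraction they were A_51_P333441 (-0.0035) and Grm8 (0.049) at 40 days and Grm8 (-0.032) for the interaction. With Cy3 alone and in the series matrix they were A_51_P465591 at 40 days (-0.039 and -0.048) and A_52_P607936 (-0.013 and -0.00082) and Grm8 (-0.011 and -0.014) at 80 days.
With an array left out, values that crossed 0 ran at 40 days from -0.12 to 0.016 for Grm3, -0.042 to 0.040 for A_51_P333441, -0.10 to 0.15 for A_51_P465591 and -0.097 to 0.098 for Grm8. At 80 days they ran from -0.022 to 0.14 for Grm3, -0.031 to 0.074 for A_52_P607936 and -0.044 to 0.094 for Grm8, and for the interaction from -0.077 to 0.11 for A_52_P607936 and -0.060 to 0.13 for Grm8. With age in wild-type cord they ran from -0.017 to 0.046 for A_51_P333441, -0.25 to 0.23 for A_51_P465591, -0.025 to 0.064 for A_52_P551129 and -0.051 to 0.14 for A_52_P607936.

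The series matrix was not run for age, since its ages were normalized apart. Most receptor probes were dim in Cy3 and not well above background in Cy5, where the offset shrinks a change, so the intervals given above cover the spread of 4 arrays per group and not that shrinkage.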
